A study of Zea mays with 4 samples.

Results

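In maize seedlings, 109 abundant nuclear genes kept nearly the same share of the scaled transcript counts after a day at 4 °C as in control plants. They were selected from 44146 nuclear gene identifiers, each beginning Zm00001d, by their levels alone. A gene had to lie between 100 and 1000 CPM in all 4 libraries, with its highest value at most 15% above its lowest. CPM is a gene's fragment count scaled to a common library size, here with library totals adjusted by edgeR's TMM factors. Of the nuclear genes, 1128 lay within the abundance limits, and the 109 steady genes were 9.66% of these. The selection used every value of the comparison of cold with control, so the levels and differences of these genes are given as a description and are not tested.

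The samples were whole seedlings of the wild-type maize inbred line B73. COLD seedlings spent 24 h at 4 °C, and CK seedlings, the controls, stayed at the growth temperature for that time, with 2 libraries for each. Up to then all had been raised for 9 days in soil between 25 and 28 °C, under a cycle of 16 h light and 8 h dark, and 10 plants per condition were taken when 10 days old. How these plants were divided between the libraries, and whether they grew apart, is not in the labels. The p-values therefore measure the spread between these libraries, which may be technical. In the column headers both CK libraries carry the same number and the COLD libraries carry different ones. What these numbers stand for is not stated.

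Transcripts that keep a constant level across treatments serve as internal standards, because a change in another transcript is measured against them. Maize, a plant of tropical origin, is sensitive to chilling, and cold alters the transcript levels of many of its genes. Scaling methods such as TMM place the zero point of a comparison by taking most genes as unchanged, so a gene that looks steady is steady relative to that zero point. The identifiers carry no gene names or functions in the sources used here, so each gene is given by its locus and structure. All coordinates are those of the B73 RefGen_v4 annotation in the deposited table.

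The libraries held 24176378 and 20942576 fragments assigned to genes in COLD, against 28493929 and 23713326 in CK. The steady genes took 2.38% and 2.23% of these fragments in COLD and 2.60% and 2.68% in CK. Each of them had between 1904 and 26706 fragments in a library, so the counting error of a single value was between 0.612% and 2.29%. These errors cover counting only, and the counts do not show how far copies made by PCR add to them. The plastid gene rbcL, for the large subunit of the carbon-fixing enzyme Rubisco, lay at 19.2 and 15.3 CPM in COLD and 14.9 and 13.8 CPM in CK, while psbA, for a core protein of photosystem II, had at most 8 fragments in any library. Mitochondrial genes took 0.134% and 0.112% of fragments in COLD against 0.0765% and 0.0701% in CK. Their part in the results was not tested.

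The steady genes covered almost the whole permitted range of abundance. Their means over the 4 libraries ran from 105 to 922 CPM with a median of 157 CPM, and 72 lay under 200 CPM, 27 between 200 and 500 CPM and 10 above 500 CPM. The most abundant was Zm00001d036630, with 4 exons at chr6:95643471-95646716 on the minus strand. It had 931 and 989 CPM in the COLD libraries and 890 and 877 CPM in the CK libraries. Both COLD values lay above both CK values, by a log2 fold change of 0.12 (SE 0.16). The second, Zm00001d006520, has 3 exons at chr2:210399298-210402238 on the plus strand. Its levels were 831 and 845 CPM in COLD against 848 and 749 CPM in CK, and the groups overlapped, with the lowest value in CK replicate 2. In bulk seedlings a level holds both the number of cells that express a gene and the RNA per cell, and these cannot be told apart.

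The next 3 genes by mean level were all near this level. Zm00001d037774, at chr6:137231049-137234466 on the plus strand, had 800 and 792 CPM in COLD and 704 and 794 CPM in CK. Its lowest value was in CK replicate 1, and the other 3 libraries differed little. Zm00001d006760, with 6 exons at chr2:216127454-216130302 on the minus strand, had 694 and 748 CPM in COLD and 665 and 716 CPM in CK. The replicates of each group spread as widely as the groups differed. Zm00001d002842, at chr2:24286536-24291225 on the plus strand, had 668 and 652 CPM in COLD and 657 and 601 CPM in CK, with CK replicate 2 again the lowest.

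**Figure D1:**
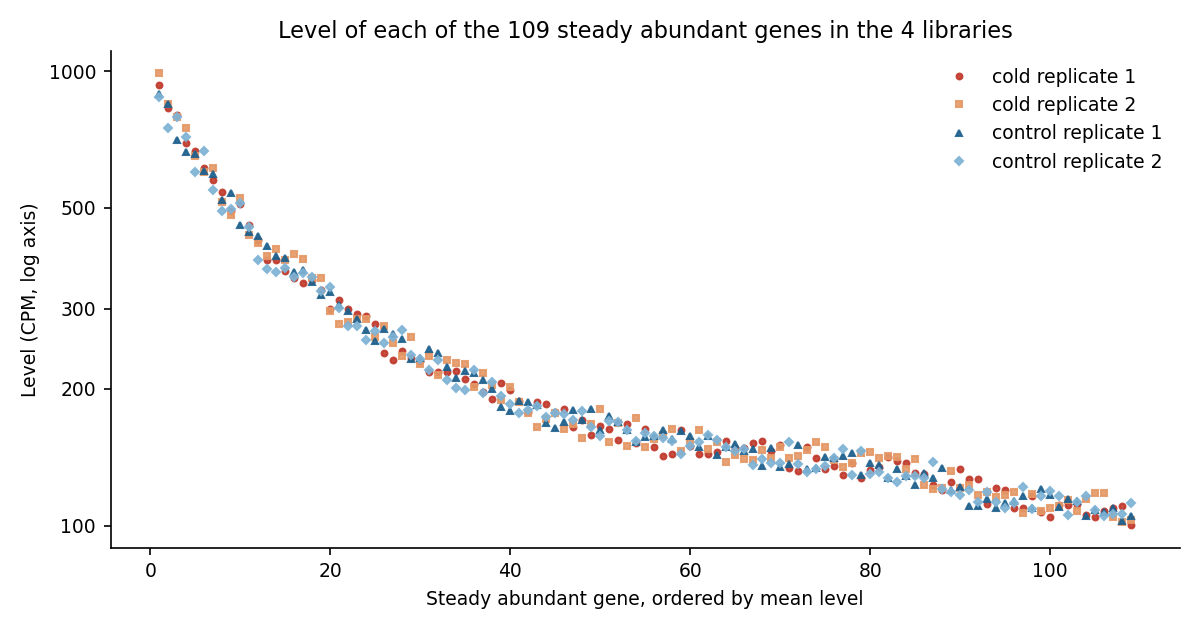
Level in CPM (log axis) of each of the 109 steady abundant genes, ordered from the highest to the lowest mean, with 1 point for each of the 2 cold and 2 control libraries. The 4 points of a gene lie within 15% by selection, while the means run from 922 down to 105 CPM.

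Levels between genes are comparable only per length of transcript, so CPM was divided by exon length in kilobases to give FPKM. On this scale the steady genes ranged from 8.30 to 675 FPKM, with a median of 76.9 FPKM against 98.9 FPKM for the 1019 other nuclear genes within the abundance limits. Before division by length the medians were 157 CPM and 209 CPM. The highest per length was Zm00001d006760 at 675 FPKM, whose exons sum to 1046 bases. Zm00001d036630 followed at 574 FPKM and Zm00001d006520 at 504 FPKM. The lowest was Zm00001d039165, at chr6:171554081-171582712 on the minus strand, which has both the most exons of the set, 34, and the greatest exon length, 15903 bases. It had 137 and 133 CPM in COLD and 129 and 129 CPM in CK. Both COLD values lay above both CK values, and the log2 fold change was 0.07 (SE 0.12).

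The most even gene was Zm00001d038648, with 6 exons at chr6:161702211-161706863 on the plus strand. It had 348 and 350 CPM in COLD and 344 and 353 CPM in CK, so that the CK values enclosed the COLD values. The ratio of its highest to its lowest value was 1.02, and the log2 fold change was 0.00 (SE 0.13). Zm00001d053003, with 7 exons at chr4:208580901-208590962 on the plus strand, had 230 and 226 CPM in COLD and 234 and 232 CPM in CK. Both COLD values lay below both CK values although the ratio of highest to lowest was 1.03, which shows that groups can fail to overlap over a very small difference.

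The other genes near the even end had ratios of 1.04 and 1.05. Zm00001d029557, with 10 exons at chr1:76065155-76078721 on the plus strand, had 135 and 139 CPM in COLD and 141 and 140 CPM in CK. Zm00001d048802, with 9 exons at chr4:5763281-5770165 on the plus strand, had 150 and 153 CPM in COLD and 157 and 150 CPM in CK. Zm00001d046336, with 15 exons at chr9:81443409-81455307 on the minus strand, had 458 and 436 CPM in COLD and 442 and 454 CPM in CK. In this last gene the COLD values enclosed the CK values. Across the set 35 genes varied by at most 10% and 74 by between 10% and 15%, so most were near the limit of the selection.

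The genes closest to the limit from inside did not vary in a shared way. Zm00001d028915, the least even gene inside it, had 239 and 275 CPM in COLD and 271 and 252 CPM in CK, and the COLD libraries were its extremes. In Zm00001d007905 the second library of each group was the higher, at 127 and 145 CPM in COLD and 129 and 146 CPM in CK. Zm00001d017117 had 127 and 117 CPM in COLD against 110 and 113 CPM in CK. Its COLD values were both the higher ones. Zm00001d031849 had 170 and 156 CPM in COLD and 171 and 179 CPM in CK, with both COLD values the lower ones. Zm00001d009638 had 511 and 526 CPM in COLD and 459 and 512 CPM in CK, where CK replicate 1 set the lowest value.

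Just outside the limit lay genes with hardly different values. The nearest, Zm00001d040665 at chr3:57044875-57051682, missed it with a ratio of 1.15005, at 100 and 111 CPM in COLD and 116 and 112 CPM in CK. The next 4 were Zm00001d049694, Zm00001d036480, Zm00001d042347 and Zm00001d034665, with ratios of 1.151 to 1.152. Zm00001d049694 had 218 and 242 CPM in COLD and 251 and 234 CPM in CK. Zm00001d036480 had 236 and 217 CPM in COLD and 235 and 249 CPM in CK. The values of these genes resemble those just inside, and the limit marks no step in the data.

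The extreme values were spread over all 4 libraries. COLD replicates 1 and 2 held the highest value of 30 and 31 genes, and CK replicates 1 and 2 that of 28 and 20. The lowest value was in COLD replicates 1 and 2 for 30 and 25 genes, and in CK replicates 1 and 2 for 22 and 32. The geometric mean over the 109 genes was 191 and 193 CPM in COLD and 192 and 189.7 CPM in CK. The COLD libraries did not overlap with the CK libraries in 43 genes, with COLD above CK in 21 and below it in 22. Among all 23169 genes tested, 79.4% had groups that did not overlap, 38.2% with COLD above and 41.2% with COLD below. The selection fixes these counts in part, and nothing is read from them.

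Cold against control was tested across all 23169 genes that passed the low-count filter, all 109 steady genes among them. At an adjusted p under 0.05, 0 of the 109 were called, against 54.0% of all genes tested (edgeR quasi-likelihood test, Benjamini-Hochberg adjustment), and 0 were past an unadjusted p of 0.05, against 60.1%. DESeq2 also called 0 of the 109, against 47.6% of all genes. The selection used this comparison, so these counts describe it and support nothing. Log2 fold changes ran from -0.15 in Zm00001d045025 to 0.16 in Zm00001d045675, with 59 above 0 and 50 below. Their median was 0.00, beside -0.03 for all genes tested.

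A gene that is not called is not shown to be unchanged, and the intervals give the size of change that these data leave room for. The 95% interval of the log2 fold change, from the moderated error of the edgeR fit, had a median half-width of 0.29, which is a 1.22-fold difference in either direction. The widest-reaching intervals extended down to -0.46 and up to 0.49. All 109 intervals lay within a 1.5-fold change, as did 352 of those of the other 1019 abundant genes. The genes were chosen for close values in these same libraries, and the intervals make no allowance for that choice. The intervals also hold for TMM factors only, and with library totals alone the median log2 fold change of the set was -0.21.

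At both ends of the set the groups were separated by more than their replicates were. Zm00001d045675, at chr9:32681291-32690688, had 149 and 147 CPM in COLD and 133 and 131 CPM in CK, a log2 fold change of 0.16 (SE 0.12). Zm00001d045315, on the same chromosome (18806523 to 18809336), had 141 and 143 CPM in COLD and 127 and 127 CPM in CK. At the other end, Zm00001d045025, also at chr9:10466380-10471375, had 300 and 297 CPM in COLD against 327 and 335 CPM in CK, a log2 fold change of -0.15 (SE 0.13). In each of these genes the groups did not overlap and the shift was larger than the spread within either group. These 3 genes were picked after their values were seen.

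**Figure D2:**
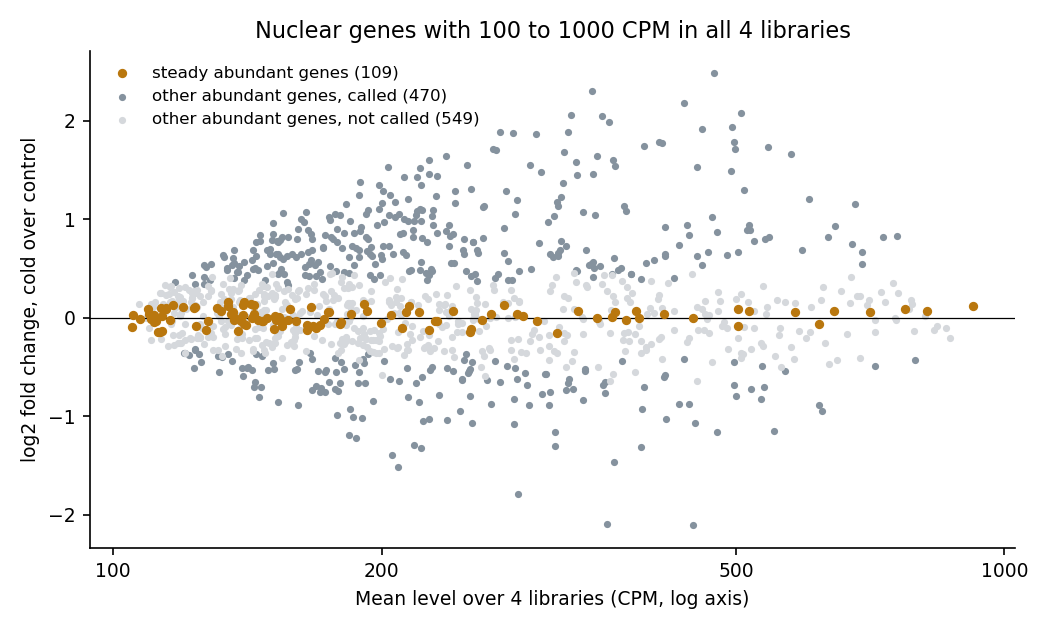
Log2 fold change of cold over control against mean level (CPM, log axis) for the 1128 nuclear genes with 100 to 1000 CPM in all 4 libraries, 1 point per gene. The 109 steady genes lie between -0.15 and 0.16, and the 549 others that were not called surround them, from -0.64 to 0.46. The 470 called genes lie above 0.33 or below -0.32, so they overlap in part with those not called. The narrowing at the left edge comes from the requirement of 100 CPM in every library.

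The limit of 15% reached well into the spread between replicates. Of the 1128 abundant genes, 394 had group means within 15% of each other, 621 had COLD libraries within 15% and 953 had CK libraries within 15%. The COLD libraries differed by a median factor of 1.05 in the steady genes and 1.149 in the other abundant genes. In the CK libraries these medians were 1.04 and 1.07. Fewer genes met the limit between the COLD replicates than between the CK replicates, and fewest between the group means. Of the abundant genes 658 were not called in the test, and 549 of these lay outside the steady set. Such genes had a median ratio of highest to lowest of 1.29, so the steady set is a narrow part of those for which no difference was found.

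The apparent constancy depends on how the libraries were put on a common scale. With TMM factors the median of the 109 genes in COLD was 0.279% above that in CK, and with RLE factors, the DESeq2 method, it was 2.59% above. With upper-quartile factors it was 10.3% below, and with library totals alone 13.3% below. On the log2 scale the medians were 0.04 with RLE, -0.16 with upper-quartile factors and -0.21 with library totals. The medians of all genes tested under the same scalings were 0.00, -0.19 and -0.24, against -0.03 with TMM. A scaling shifts every gene of a library alike, and the set shifted with the rest. The share of calls that were higher in COLD moved too, at 49.99% of calls with TMM, 52.1% with RLE, 39.8% with upper-quartile factors and 36.8% with library totals.

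With library totals alone all 109 genes had a log2 fold change below 0, and with upper-quartile factors 108 did. The limit of 15% was then met by 22 and 42 of them, and with RLE factors by 83. Under library totals 5 were called lower in COLD, where 55.9% of all genes were called and 35.3% were called lower (edgeR, adjusted p of 0.037 to 0.050). They were Zm00001d045025, Zm00001d018981, Zm00001d004841, Zm00001d048368 and Zm00001d053010. Zm00001d045025, at -0.36 (SE 0.13), then had 290 and 265 CPM in COLD against 345 and 369 CPM in CK. The other alternatives called 0 of the 109. These were RLE factors, which called 53.8% of all genes tested, upper-quartile factors (56.3%), no filter on low counts (44.3%), a stricter filter (60.2%) and the replicate number as a block (50.2%). Leaving out COLD replicate 1 (53.6%), COLD replicate 2 (51.6%), CK replicate 1 (37.2%) or CK replicate 2 (35.3%) likewise left 0 of the 109 called.

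**Figure D3:**
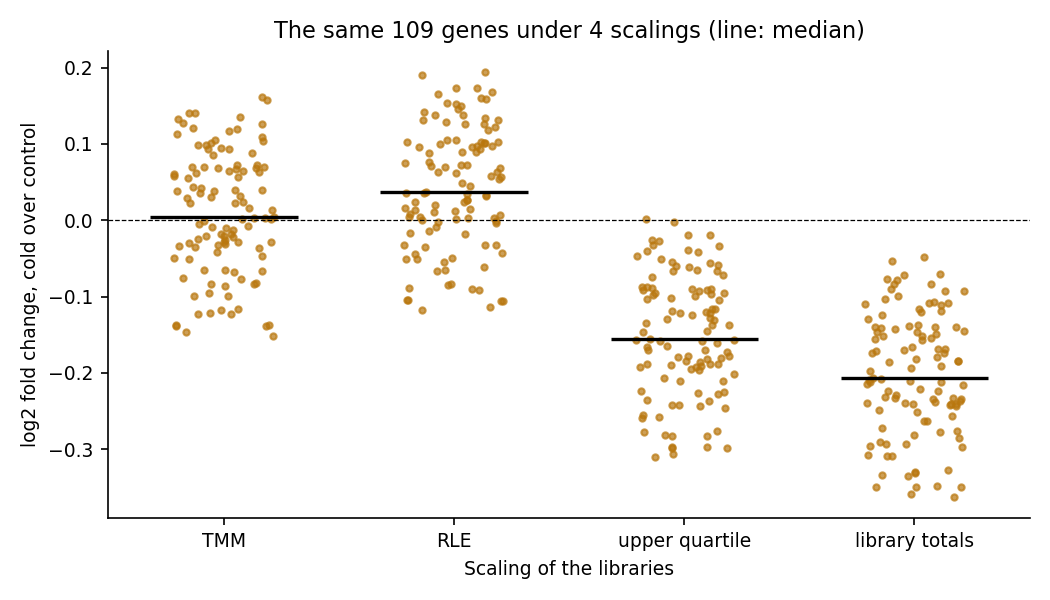
Log2 fold change of cold over control for the same 109 genes under 4 scalings of the libraries, 1 point per gene with the median as a line. The medians are 0.00 with TMM, 0.04 with RLE, -0.16 with upper-quartile factors and -0.21 with library totals.

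A group of 5 genes met the selection under all 4 scalings, and no other gene in the table did. Zm00001d017985, with 8 exons at chr5:211401090-211405864 on the minus strand, had 150 and 149 CPM in COLD and 135 and 137 CPM in CK. Both COLD values were the higher ones, and its ratio was 1.12 with TMM and 1.04 with upper-quartile factors. Zm00001d028218, with 19 exons at chr1:26887363-26899704 on the minus strand, had 116 and 118 CPM in COLD and 109 and 109 CPM in CK. Zm00001d048193, with 5 exons at chr9:152167685-152170674 on the minus strand, had 125 and 132 CPM in COLD and 120 and 118 CPM in CK. In all of these genes both COLD values lay above both CK values with TMM. Upper-quartile factors and library totals lower COLD relative to CK, so meeting all 4 scalings favours genes that are higher in COLD with TMM. Nothing is read from this direction.

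The remaining genes of this group had overlapping values. Zm00001d038972, with 14 exons at chr6:168004770-168021297 on the minus strand, had 218 and 232 CPM in COLD and 223 and 209 CPM in CK. Zm00001d043632, with 6 exons at chr3:205644327-205647560 on the plus strand, had 134 and 141 CPM in COLD and 136 and 131 CPM in CK. Across the 4 scalings their ratios of highest to lowest were between 1.08 and 1.14. All of these were picked after the values were seen.

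The proportions among the steady genes do not depend on the scaling, but the genes were selected for close values, so their near constancy restates the selection. When each gene was divided by the geometric mean of the 109 in the same library, 102 stayed within 15% over the 4 libraries and 38 within 10%. The largest factor was 1.17 and the median 1.11. Zm00001d038648 had the smallest, 1.03. Constant proportions do not show a constant number of transcripts per cell.

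The steady genes were long and rich in exons compared with all tested nuclear genes. CPM is not divided by length, so the lower limit of 100 CPM favours long genes, and the other abundant genes, which met the same limits, are the closer comparison. They were not matched in level, with a median of 209 CPM against 157 CPM for the steady genes. Exons annotated for different transcripts of a gene were merged where they overlapped, and the resulting separate exons were counted. The steady genes had a median of 7, with quartiles of 4 and 13, against 6 for the other abundant genes and 4 for all 22983 nuclear genes tested. More than 10 exons were found in 36 steady genes (33.0%), in 23.5% of the other abundant genes and in 13.0% of all tested nuclear genes. A single exon was found in 2 of the 109 (1.83%), in 5.99% and in 16.9%. The differences in these shares were not tested, and the other abundant genes lay between the steady genes and all tested genes in each of them.

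Among the other abundant genes, exon number also differed with the direction of change. Those called higher in COLD had a median of 7 exons, those called lower 5 and those not called 6. The exon length of the steady genes had a median of 2378 bases, against 2759 bases for other abundant genes called higher, 1817 bases for those called lower and 1911 bases for those not called. It was 2151 bases for all the other abundant genes and 1888 bases for all tested nuclear genes. The stretch from the first to the last exon had a median of 4565 bases in the steady genes and 3625 bases in all tested nuclear genes. The median exon length of the steady genes was thus above that of the other abundant genes that were not called, a difference that was not tested.

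**Figure D4:**
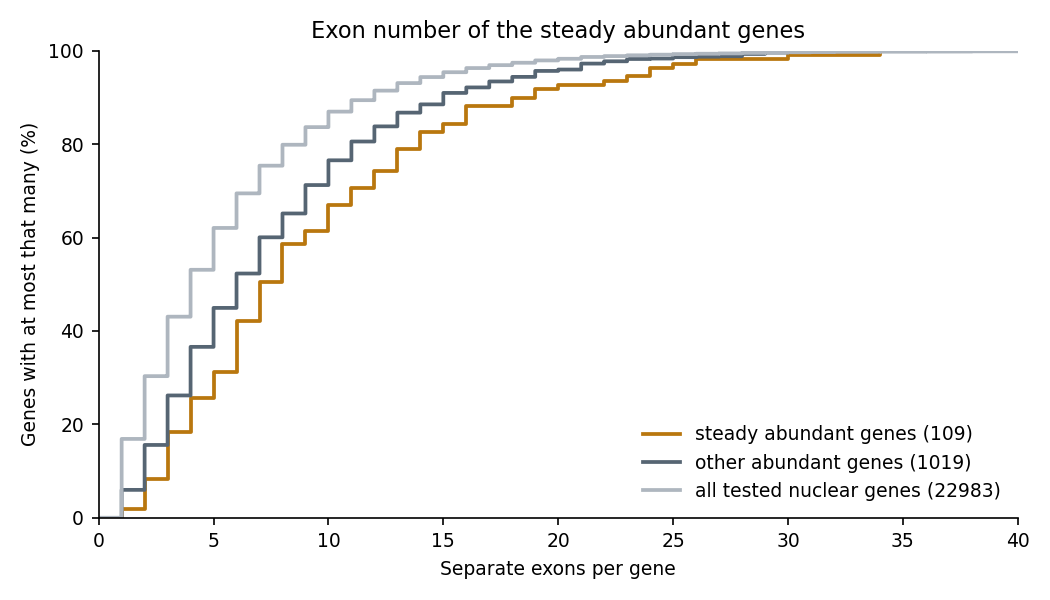
Cumulative share of genes (%) with at most a given number of separate exons, for the 109 steady abundant genes, the 1019 other nuclear genes of 100 to 1000 CPM and all 22983 nuclear genes tested. The curve of the steady genes lies to the right, with medians of 7, 6 and 4 exons.

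The extremes of structure were wide. The longest locus was that of Zm00001d028915, with 26 exons spread over 83747 bases at chr1:51076671-51160417 on the plus strand. The shortest was Zm00001d010650, a single exon of 342 bases at chr8:122947080-122947421, with 131 and 140 CPM in COLD and 123 and 129 CPM in CK. The other gene with a single exon, Zm00001d000227, lies on the unplaced contig B73V4_ctg98 (2666 to 3625). It had 109 and 119 CPM in COLD and 113 and 112 CPM in CK. The annotation lists an exon once for each transcript that uses it, which gave a median of 27 entries in the steady genes, 19 in the other abundant genes and 8 in all tested nuclear genes. The highest were Zm00001d002089 with 1049 entries and Zm00001d026439 with 1042, each over 16 separate exons.

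The set was spread over the genome. Chromosomes 1 and 5 held 19 and 17 of the 109 genes, chromosomes 2 and 6 held 11 each, and chromosome 10 held 6. As a share of the abundant genes of a chromosome this was between 7.14% on chromosome 7 and 11.6% on chromosome 5. The plus strand carried 54 of them. A pair of steady genes were next to each other on chromosome 3, Zm00001d041776 (137250657 to 137254412, minus strand) and Zm00001d041777 (137266061 to 137269605, plus strand), with start sites facing across a gap of 11648 bases. Zm00001d041776 had 188 and 187 CPM in COLD and 188 and 177 CPM in CK, and Zm00001d041777 had 197 and 217 CPM in COLD and 209 and 196 CPM in CK. They have 12 and 11 exons and similar levels per length, 95.6 and 98.2 FPKM.

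A second pair on chromosome 3 had no tested gene between them over 172481 bases. Zm00001d043625 (205468692 to 205471845, minus strand) had 148 and 140 CPM in COLD and 146 and 147 CPM in CK. Zm00001d043632, described above, lies to its right on the plus strand. Each has 6 exons, with exon lengths of 1776 and 1826 bases. Whether these genes are alike in sequence was not examined. Reads that mapped to several places were left out of the counts, so levels of genes with near-identical copies are uncertain.

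Overlap with other annotated genes concerned 5 of the 109 (4.59%), against 6.77% of the other abundant genes and 8.36% of all tested nuclear genes. Reads were counted without strand, and the default counting leaves out fragments that overlap several genes, so stretches shared with a partner can be missing from the counts of both. Zm00001d034935, with 10 exons at chr1:306096938-306104725 on the plus strand, overlaps 3 genes on the minus strand. It had 577 and 612 CPM in COLD and 593 and 547 CPM in CK, and its most abundant partner, Zm00001d034937, had 34.3 and 30.7 CPM in COLD and 42.6 and 39.3 CPM in CK. That overlap is 79 bases long. Another partner, Zm00001d034936, lies almost wholly within its exons and was listed at 0 fragments in every library, which says nothing of its expression because shared stretches were left out.

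The other overlapping genes were Zm00001d018981, Zm00001d052801, Zm00001d011448 and Zm00001d002585. Their partners were listed at no more than 32 fragments in any library, and this does not show that they were silent, since the same counting applies. Zm00001d018981 had 129 and 134 CPM in COLD against 142 and 147 CPM in CK, and Zm00001d052801 had 130 and 123 CPM in COLD and 130 and 127 CPM in CK. Zm00001d011448 had 111 and 114 CPM in COLD and 115 and 105 CPM in CK, and Zm00001d002585 had 104 and 118 CPM in COLD and 108 and 108 CPM in CK. Of these 4 genes only Zm00001d018981 had groups that did not overlap.

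Over the nearest tested gene on each side, genes beside the steady ones were called about as often as genes beside other genes. The nearest tested nuclear gene on each side was taken, which gave 217 neighbours, or 216 different genes. The selection did not use them, apart from 4 that are steady genes themselves. Of the 217, 65 were higher in COLD and 51 lower, so 53.5% were called, against 54.2% of the neighbours of all tested nuclear genes (edgeR quasi-likelihood test, adjusted p). The shares were not tested against each other. The neighbours of the other abundant genes were called in 51.5% of cases. A change of at least 2-fold was found in 33.2% of the neighbours, beside 32.1% of the neighbours of all tested nuclear genes. At least 1 called neighbour was present for 86 of the 109 genes (78.9%), against 74.6% of the other abundant genes and 78.7% of all tested nuclear genes. A called neighbour on both sides was present for 30 (27.5%), against 28.2% and 29.5%. Within 10 kb there were 69 neighbours of 53 steady genes, and 33 of them (47.8%) were called. This share was lower than the 54.3% for all tested nuclear genes and 53.5% for the other abundant genes. At least 1 called neighbour within 10 kb was present for 28 of the 53 (52.8%), below the 59.5% and 59.0% of those sets. Called neighbours on both sides within 10 kb were present for 5 of the 53 (9.43%), against 5.83% and 4.62%. That share also depends on how many genes have a neighbour on both sides within 10 kb. All tested nuclear genes had 13600 neighbours within 10 kb of 11289 genes, and the other abundant genes 592 of 498. Nothing is read from this difference. Without CK replicate 2 the share called among the 217 was 34.6%, where 35.3% of all genes tested were called.

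Some steady genes stood beside genes with very large changes, picked here after their values were seen among neighbours of at least 10 CPM. Zm00001d045661, 225730 bases from the steady Zm00001d045665 on chromosome 9, had 5.91 and 7.001 CPM in COLD against 96.5 and 85.1 CPM in CK. That is a 14.1-fold lower level (log2 fold change -3.82, SE 0.15, edgeR adjusted p = 1.3e-05). Zm00001d044017, 19047 bases from Zm00001d044016 on chromosome 3, had 21.1 and 17.9 CPM in COLD and 142 and 220 CPM in CK. Zm00001d044016 itself had 120 and 117 CPM in COLD and 112 and 109 CPM in CK.

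Neighbours also rose steeply. Zm00001d043621 on chromosome 3, 80480 bases from the steady Zm00001d043625, had 18.0 and 35.1 CPM in COLD against 1.17 and 0.192 CPM in CK (log2 fold change 5.22, SE 0.57, edgeR adjusted p = 0.0003). Zm00001d041191, on the same chromosome and 468778 bases from Zm00001d041186, had 63.7 and 97.2 CPM in COLD and 3.33 and 4.14 CPM in CK. The steady Zm00001d041186 had 168 and 150 CPM in COLD and 162 and 162 CPM in CK. Steady genes thus stood beside genes that differed in either direction.

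**Figure D5:**
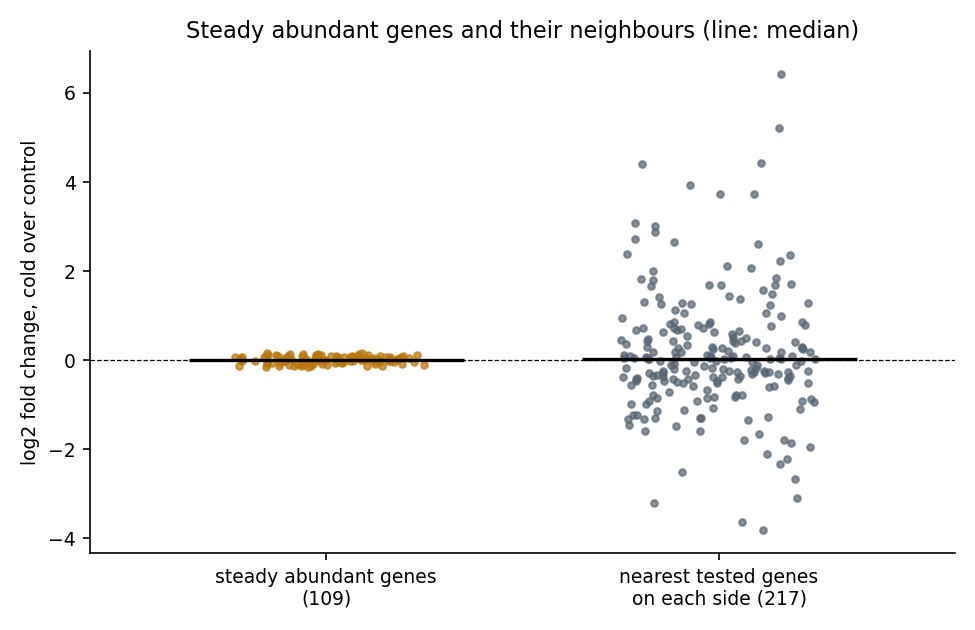
Log2 fold change of cold over control for the 109 steady abundant genes and for the nearest tested gene on each side of them, with the median as a line. The 217 neighbour points stand for 216 different genes, since 1 gene lies beside 2 steady genes, and 4 are steady genes themselves. The steady genes lie between -0.15 and 0.16 by selection, and their neighbours between -3.82 and 6.43.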

How the data were processed

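The deposited table gives raw counts of fragments per gene, separately for each of the 4 libraries. Per the file headers, the authors ran featureCounts 1.6.4 without strand on the B73 RefGen_v4 annotation (release 43), and its defaults leave out reads of several positions or genes. The submitters' processing notes also name fastp and HISAT2. The deposited exon length equals the merged exons in all 46430 rows.

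Replicates were not repeat deposits: the chi-square statistic per degree of freedom was 25.0 for COLD and 11.3 for CK over genes with at least 20 fragments. Genes passing edgeR's filterByExpr (23169) were scaled with TMM factors (0.966 and 0.893 for COLD, 1.05 and 1.10 for CK). The test was edgeR's quasi-likelihood F test (version 4.0.16, R 4.3.3), which is two-sided, fitted with COLD or CK as its single term, with Benjamini-Hochberg adjustment at 0.05. SE is the log2 fold change divided by the root of F, and intervals use 7.54 degrees of freedom. The code was tested on simulated data. Alternatives were RLE, upper-quartile and no factors, DESeq2 1.42.0, other filters and limits, the replicate number as a block, and leaving out each library.

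The genes, gene lists and tests were chosen with earlier results of these data known. Named genes are the 5 of highest mean CPM, the 5 most and 5 least even, the 5 nearest outside the limit, the 3 highest per length, those overlapping another gene, and those with the most or longest exons; others are said to be picked later or come from the descriptions of structure and position. A RefSeq gene table of another build (Zm-B73-REFERENCE-NAM-5.0) matched 0 of 44146 nuclear identifiers, so 18 lists of commonly steady gene families could not be counted.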

Additional observations from a re-analysis of the deposited data

How the results depend on the processing

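The number of genes that meet the selection was 35 at a limit of 10%, 202 at 20% and 301 with limits of 50 to 1000 CPM, against 109. With a library left out it ran from 154 to 309, since fewer values then have to agree. It was highest without COLD replicate 1 (309) and was 269 without COLD replicate 2, 174 without CK replicate 1 and 154 without CK replicate 2. Of the 109, 101 met it whichever library was left out. The selection largely fixed this, since values that are close over all 4 libraries are also close over fewer. Only the recalculated factors can move such a gene out. With upper-quartile factors 42 of the 109 met it and with library totals 22. The median log2 fold change of the 109 was then -0.16 and -0.21, and that of all genes tested -0.19 and -0.24. The number of the 109 below 0 was 31 with RLE factors, 31 with DESeq2, 108 with upper-quartile factors and 109 with library totals, against 50. Library totals called 5 of the 109, and the other alternatives run called 0. With TMM factors the median exon number of the set was 3 above that of all tested nuclear genes and 1 above that of the other abundant genes. Among the genes that met the selection it was 7 with TMM, RLE or upper-quartile factors and 6 with library totals.

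With a library left out, the number of genes called lower over the whole table ran from 3978 to 6397, against 6259, and was lowest without CK replicate 2. The share of neighbours called ran from 34.6% to 56.0%. With the replicate number as a block, 5829 genes were called higher and 5808 lower, and 0 of the 109 were called. Same-numbered libraries did not deviate together (correlation across genes -0.09). This rests on 1 difference between libraries in each condition, so it cannot decide whether the samples were paired. Where a condition is left with 1 library, its spread is taken to equal that of the other. The SE of the log2 fold change ran from 0.115 to 0.16 in the steady genes. It comes from the moderated edgeR fit, which shares spread between genes, so it is not the replicate spread of the steady genes alone. What limits the precision of these genes was not tested.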

Other observations

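Genes within the 15% limit were found in every band of mean level from 1 CPM up. By mean level, the same limit of 15% between the highest and the lowest library was met by 1.32% of nuclear genes between 1 and 10 CPM and by 5.91% between 10 and 100 CPM. It was met by 7.42% between 100 and 200 CPM, 4.91% between 200 and 500 CPM and 7.04% between 500 and 1000 CPM. At a mean of 1000 CPM and above, 2 of 75 genes met it (2.67%). The replicates of a gene differed most between 1 and 10 CPM, by a median factor of 1.249 in COLD and 1.18 in CK. The factor was smallest in the middle bands, at 1.136 in COLD between 10 and 100 CPM and 1.06 in CK between 100 and 200 CPM. It was larger again at 1000 CPM and above, at 1.203 in COLD and 1.13 in CK.

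Above 1000 CPM in all 4 libraries, 2 nuclear genes met the same limit, both on the minus strand of chromosome 4. Zm00001d049387 (28605301 to 28606526, 5 exons) had 2084 and 2207 CPM in COLD and 2134 and 1965 CPM in CK. Its exons sum to 674 bases, which places it at 3112 FPKM. Zm00001d049641 (38551544 to 38555126, 11 exons) had 1087 and 1196 CPM in COLD and 1144 and 1101 CPM in CK, or 574 FPKM. The groups overlapped in both genes.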
